A study of Homo sapiens with 24 samples.

Results

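The 10 genes described here are used as markers of mesenchymal cells: FN1, TNC, THBS1, SPARC, POSTN, FBN1 and LUM encode secreted matrix proteins, VIM a cytoskeletal filament, and CDH2 and CDH11 adhesion proteins. They were taken by symbol from a table of counts per gene, and all 10 were found among its 59251 genes and were among the 20820 genes tested. Poly(A) RNA had been sequenced from MCF10A, an established breast epithelial cell line, as a MYC-transformed derivative, PM, and a non-transformed derivative, PE. Each line carried one of the doxycycline-induced hairpins shCHD1 B (hairpin B), shCHD1 A (hairpin A) or shGFP, the control (GFP hairpin), so the 6 groups were hairpin B, hairpin A and the GFP hairpin in PM, and the same in PE. All cultures, controls included, received doxycycline at 50 ng/ml for 72 h, and each group held 4 libraries, 24 in all. The growth medium of every group held horse serum, EGF, hydrocortisone, cholera toxin and insulin. They are labelled as biological replicates, with nothing on whether they came from separate cultures, so every p-value reflects only how these libraries vary, which may be technical. CHD1 is a chromatin remodelling ATPase, and the title of the series asks whether breast cancers driven by MYC rely on it.

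Fibronectin, tenascin, thrombospondin, osteonectin and periostin are secreted proteins that cells bind through integrins and other receptors, while fibrillin and lumican belong to microfibrils and collagen fibrils. Vimentin forms the intermediate filaments of mesenchymal cells, and N-cadherin and cadherin-11 join such cells through their catenin-bound tails. Epithelial cells that lose E-cadherin and gain several of these proteins are said to undergo an epithelial to mesenchymal transition, and MCF10A cells, which are basal-like, make some of them in ordinary culture.

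Library totals ran from 4.14 to 93.3 M counts (M, counts in units of 1e+06), and the shallowest library was the first GFP replicate of PE. Between 18380 and 24764 genes had a count in 23 libraries, whereas replicate 3 of hairpin B in PM had 33137, so that library stands apart. CHD1 averaged 29.5 and 31.04 CPM (counts per 1e+06 counts of the library, after TMM scaling) with hairpins B and A in PM, against 90.0 CPM with the GFP hairpin, and 28.1 and 29.2 CPM in PE, against 78.8 CPM. MYC averaged 392 CPM with hairpin B and 564 CPM with hairpin A in PM, against 518 CPM with the GFP hairpin, and 275 CPM with hairpin B and 258 CPM with hairpin A in PE, against 275 CPM. Of these, hairpin B in PM passed for MYC (log2 -0.40, adjusted p = 3.58e-06), and the others did not. All libraries held basal epithelial transcripts, with 10 markers summing to at least 1860 CPM, although TP63 stayed under 1 CPM on average in all 6 groups. The 9 fibroblast markers summed to between 17.7 and 71.2 CPM, most of it from DCN, FAP and COL1A1, while COL1A2 was at 0 in 3 groups. In bulk RNA, fewer cells of a kind and less RNA per cell cannot be told apart.

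**Figure D1:**
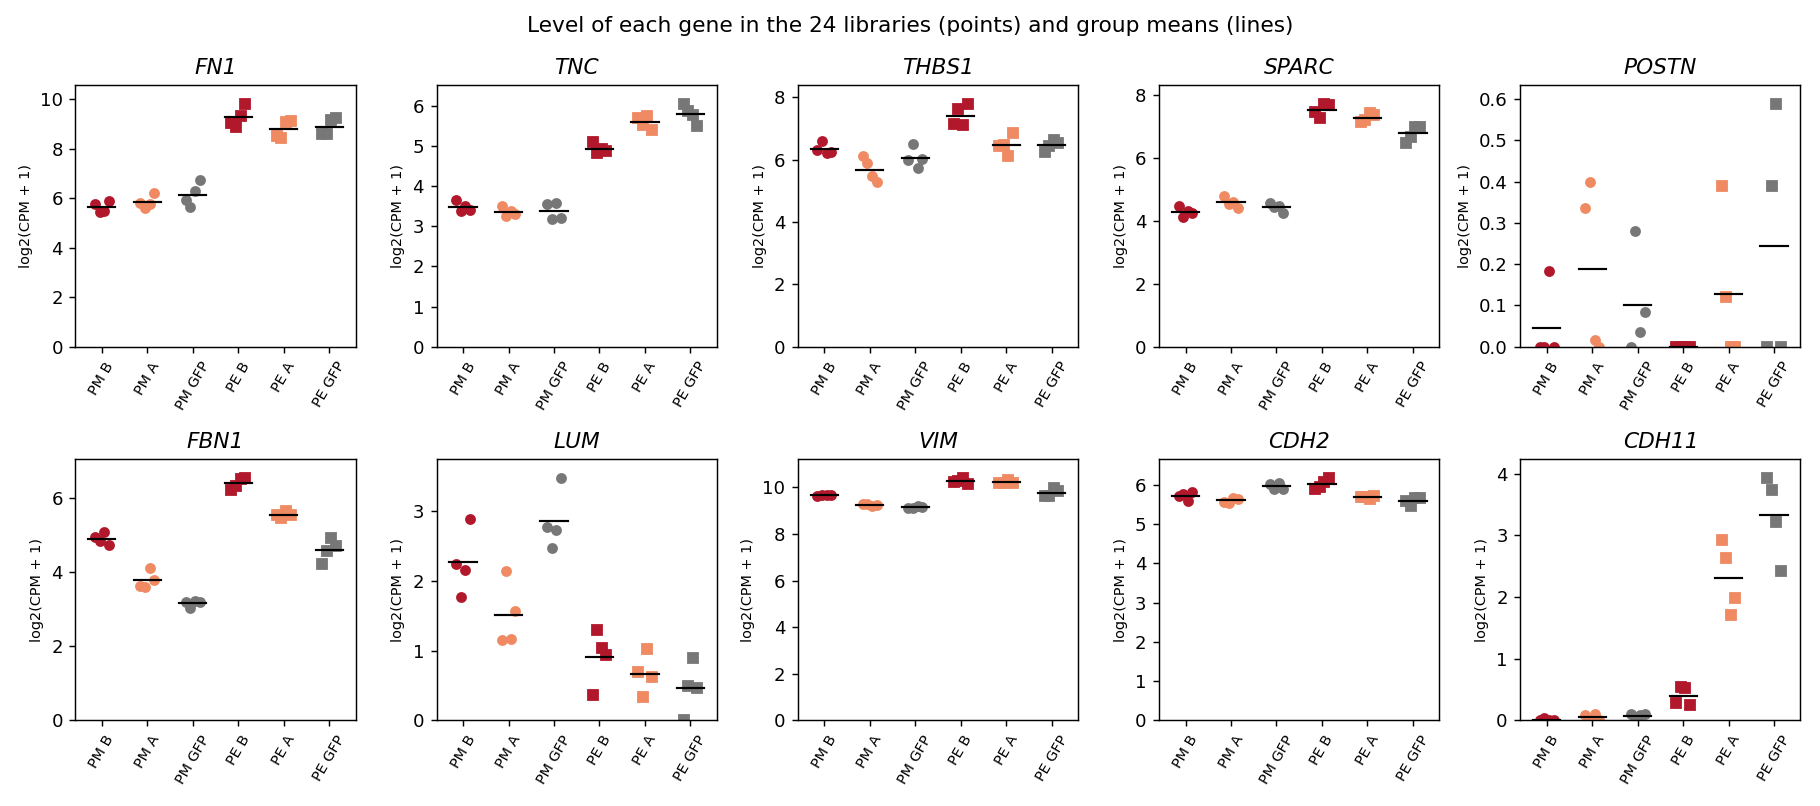
Level of each gene in every library on a log2(CPM + 1) axis; points are libraries, lines are means of 4 libraries, circles are PM and squares PE, with hairpin B, hairpin A and the GFP hairpin from left to right in each line. FBN1 is highest with hairpin B in both lines, CDH11 is near 0 in all PM groups, and LUM with the GFP hairpin is higher in PM than in PE.

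The members differed widely in level once counts were divided by gene length, taken as the union of all annotated exons. With the GFP hairpin in PM, VIM was highest at 110 CPM per kb, followed by CDH2 at 12.4 CPM per kb and THBS1 at 7.3 CPM per kb. SPARC, at 4.3 CPM per kb, and FN1, at 4.21 CPM per kb, overlapped in range, and so did FN1 and LUM at 2.17 CPM per kb. TNC, FBN1 and POSTN followed at 0.986, 0.496 and 0.0138 CPM per kb, and CDH11 was lowest at 0.00402 CPM per kb, overlapping POSTN. With the GFP hairpin in PE, VIM again came first at 169 CPM per kb, ahead of FN1 at 28.1 and SPARC at 22.8 CPM per kb, which overlapped. THBS1 and CDH2 lay at 9.58 and 9.57 CPM per kb in PE and overlapped, TNC at 5.69, FBN1 at 1.47 and CDH11 at 0.733 CPM per kb. LUM at 0.136 and POSTN at 0.0372 CPM per kb were lowest in PE and overlapped. CDH2 therefore stood in the second place in PM and the fifth in PE.

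The first comparison was between the lines with the control hairpin. Of the 10 genes, 8 passed the threshold of an adjusted p of 0.05 in edgeR's quasi-likelihood test, 2 higher and 6 lower in PM. Of all genes tested 25.5% passed, 14.1% higher and 11.4% lower. In a fit of the 11680 genes with at least 5 CPM in 4 libraries, 4924 passed. The libraries of the lines did not overlap for 8 members and for 24.9% of all genes. The median log2 difference of the 10 genes was -1.57, beside 0.02 over all genes tested. FN1, TNC, SPARC, FBN1, VIM and CDH11 were lower in PM, LUM and CDH2 were higher, and THBS1 and POSTN did not pass.

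FN1 (chr2:215360865-215436068, GRCh38.p14), the fibronectin of matrix and plasma, had 59.6, 49.4, 76.9 and 106 CPM in PM, against 385, 383, 566 and 612 CPM in PE. Every PM library lay below every PE library, and replicates 3 and 4 were above replicates 1 and 2 in both lines. The log2 difference was -2.74 (SE 0.27, adjusted p = 2.86e-07). TNC (chr9:115019575-115118157), tenascin C, which modulates adhesion to fibronectin, had 10.8, 8.09, 10.9 and 8.21 CPM in PM, against 64.5, 56.9, 53.6 and 44.3 CPM in PE. Its groups did not overlap, with a log2 difference of -2.51 (SE 0.12, adjusted p = 1.1e-17). SPARC (chr5:151661096-151686915), a collagen-binding matricellular protein, had 22.7, 20.8, 21.3 and 18.2 CPM in PM, against 88.6, 101, 125 and 127 CPM in PE. The PM libraries lay within a few CPM of one another and well below PE, at a log2 difference of -2.42 (SE 0.12, adjusted p = 4.82e-15).

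FBN1, VIM and CDH11 were also lower in PM. Mean levels of FBN1 were 7.96 ± 0.487 CPM in PM and 23.7 ± 4.90 CPM in PE (SD, n = 4 each), a log2 difference of -1.62 (SE 0.12, adjusted p = 2.64e-12 in edgeR). Those of VIM were 565 ± 20.7 CPM in PM and 871 ± 100 CPM in PE, a smaller log2 difference of -0.62 (SE 0.06, adjusted p = 1.24e-09 in edgeR). CDH11 (chr16:64943753-65123744), a cadherin of mesenchymal tissue and osteoblasts, had 2, 0, 5 and 4 counts in the PM libraries, against 64, 239, 547 and 220 counts in PE. The ratio of CDH11 counts per library total was 0.00691 (95% interval 0.00344 to 0.0124, covering counting error only), with 11 counts over the PM libraries and 1070 over the PE libraries. At this depth CDH11 was barely detected in PM.

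LUM (chr12:91102629-91111494), a leucine-rich proteoglycan that binds collagen fibrils, differed in the other direction. It had 5.84, 4.52, 5.65 and 10.1 CPM in PM, against 0, 0.413, 0.853 and 0.375 CPM in PE. The LUM groups did not overlap, and the log2 difference was 3.63 (SE 0.50, adjusted p = 2.37e-06). The PE library at 0 was the shallowest one, and without it the difference stayed past the threshold, as it did under every alternative run, with log2 values between 3.34 and 4.23. CDH2 (chr18:27932879-28177130), N-cadherin, had 63.4, 58.5, 65.2 and 58.7 CPM in PM, against 47.2, 43.1, 49.6 and 49.7 CPM in PE. All PM libraries were higher, by 0.37 on the log2 scale (SE 0.07, adjusted p = 0.000173). THBS1 averaged 66.8 ± 15.7 CPM in PM and 87.7 ± 10.0 CPM in PE, with overlapping libraries and a log2 difference of -0.41 that did not pass (SE 0.21, adjusted p = 0.184). That gene passed with limma-voom (adjusted p = 0.0444) and in a fit of these groups alone (adjusted p = 0.0389).

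**Figure D2:**
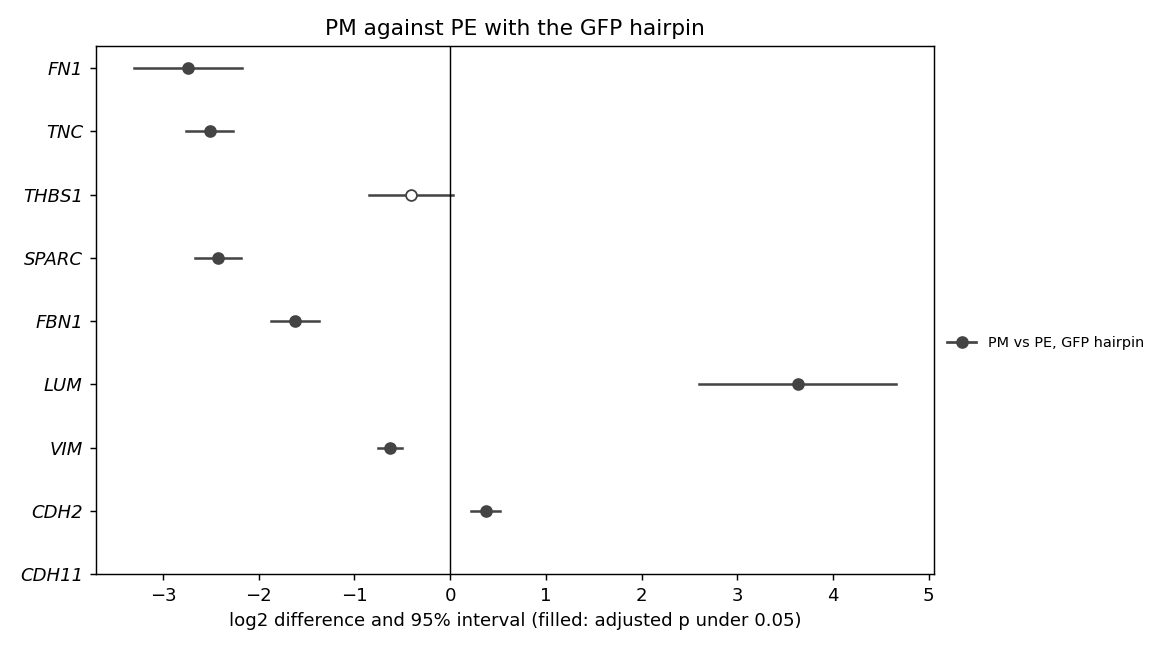
Log2 difference of PM against PE with the GFP hairpin, with 95% intervals from edgeR; filled points have an adjusted p under 0.05. LUM and CDH2 lie right of 0, and FN1, TNC, SPARC, FBN1 and VIM lie left of it; POSTN and CDH11 are not drawn because of their low counts.

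The second set of comparisons set each CHD1 hairpin against the GFP hairpin of the same line. With hairpin B in PM, 3 of the 10 genes passed, 2 higher and 1 lower, where 28.1% of all genes tested passed (13.6% higher, 14.4% lower). With hairpin A in PM it was 3 as well, 1 higher and 2 lower, against 27.8% of all genes (13.4% higher, 14.3% lower). In PE, hairpin B changed 8 of the 10, 5 higher and 3 lower, against 26.8% of all genes (13.6% higher, 13.2% lower). Hairpin A in PE changed 4, 3 higher and 1 lower, against 20.2% (10.9% higher, 9.33% lower). Under both hairpins in the same direction, FBN1 was higher and CDH2 lower in PM, where 13.3% of all genes met this rule (6.46% higher, 6.89% lower). In PE, SPARC, VIM and FBN1 were higher and CDH11 lower under both, where 12.3% of all genes did (6.75% higher, 5.58% lower). Libraries did not overlap for 3 members with hairpin B and 4 with hairpin A in PM, against 28.9% and 29.1% of all genes, and for 7 with hairpin B and 3 with hairpin A in PE, against 25.2% and 21.2%. Median log2 changes of the 10 genes were -0.20 with hairpin B and -0.15 with hairpin A in PM, and 0.46 with hairpin B and 0.05 with hairpin A in PE, beside medians over all genes between -0.01 and 0.01. The members' shares in PM are near those of all genes tested for each hairpin. More genes passed among those of higher level. In a fit of the 11680 genes with at least 5 CPM in 4 libraries, 5485 passed with hairpin B and 5591 with hairpin A in PM. In PE, 5390 of these passed with hairpin B and 4297 with hairpin A. Within a line both hairpins are set against the same GFP libraries, so their changes are not independent of each other, and the same libraries also enter the comparison of the lines.

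FBN1 (chr15:48408313-48645709), fibrillin-1, the main protein of microfibrils, was the only one of the 10 genes to pass in the same direction in all 4 of these comparisons. In PM it had 29.9, 27.6, 32.96 and 25.6 CPM with hairpin B and 11.4, 11.1, 16.4 and 12.8 CPM with hairpin A, against 8.18, 7.25, 8.32 and 8.11 CPM with the GFP hairpin. In PE it had 73.9, 79.6, 90.9 and 92.1 CPM with hairpin B and 45.5, 42.9, 48.8 and 46.1 CPM with hairpin A, against 17.6, 22.6, 29.3 and 25.2 CPM with the GFP hairpin. The 3 groups did not overlap in either line, with hairpin B highest and the GFP hairpin lowest. On the log2 scale FBN1 rose under hairpin B by 1.87 in PM (SE 0.12, adjusted p = 5.73e-14) and by 1.78 in PE (SE 0.12, adjusted p = 1.24e-13). For hairpin A the log2 changes were 0.71 in PM (SE 0.12, adjusted p = 2.04e-05) and 0.90 in PE (SE 0.12, adjusted p = 4.22e-07). With hairpin B the PM libraries, at a mean of 29.01 ± 3.17 CPM, came to lie near the PE libraries with the GFP hairpin, at 23.7 ± 4.90 CPM; that pair was not tested.

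VIM (chr10:17228241-17237593) had 791, 805, 811 and 823 CPM with hairpin B in PM and 613, 621, 593 and 611 CPM with hairpin A, against 546, 550, 590 and 575 CPM with the GFP hairpin. The hairpin A libraries were all above the GFP libraries, but by little. In PE, VIM had 1183, 1225, 1344 and 1140 CPM with hairpin B and 1178, 1153, 1265 and 1162 CPM with hairpin A, against 791, 784, 988 and 920 CPM with the GFP hairpin. Both hairpins lay above the GFP hairpin without overlap in PE. The log2 changes were 0.51 for hairpin B in PM (SE 0.06, adjusted p = 5.83e-08), 0.49 for hairpin B in PE (SE 0.06, adjusted p = 1.49e-07) and 0.45 for hairpin A in PE (SE 0.06, adjusted p = 1.36e-06). Hairpin A in PM gave 0.11 (SE 0.06, adjusted p = 0.216), which did not pass.

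SPARC in PM had 21.2, 16.5, 18.8 and 18.1 CPM with hairpin B and 26.7, 22.3, 23.1 and 20.4 CPM with hairpin A, against 22.7, 20.8, 21.3 and 18.2 CPM with the GFP hairpin. These groups overlapped, and neither hairpin passed (log2 -0.15 with adjusted p = 0.38 for B, and 0.16 with adjusted p = 0.352 for A). In PE it had 174, 153, 208 and 203 CPM with hairpin B and 142, 147, 170 and 162 CPM with hairpin A, against 88.6, 101, 125 and 127 CPM with the GFP hairpin. There, every CHD1 hairpin library was above every GFP library. The log2 change of SPARC in PE was 0.73 under hairpin B (SE 0.11, adjusted p = 7.01e-06) and 0.48 under hairpin A (SE 0.11, adjusted p = 0.00175).

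THBS1 (chr15:39581079-39599466), thrombospondin-1, which binds CD36 and CD47 and can activate latent TGF-beta, passed with hairpin B in PE and in none of the other 3 comparisons. In PE it had 140, 194, 139 and 218 CPM with hairpin B and 84.8, 87.2, 69.1 and 115 CPM with hairpin A, against 74.8, 86.3, 98.6 and 91.1 CPM with the GFP hairpin. Hairpin B stood above both other groups, which overlapped, and its log2 change was 0.96 (SE 0.21, adjusted p = 0.00161). In PM the means were 80.4 ± 10.4 CPM with hairpin B and 51.7 ± 13.8 CPM with hairpin A, against 66.8 ± 15.7 CPM with the GFP hairpin (SD, n = 4 each). Neither passed in PM (log2 0.27 with adjusted p = 0.402 for B, and -0.37 with adjusted p = 0.212 for A), and the PM minus PE difference for hairpin B, -0.70, did not pass either (SE 0.29, adjusted p = 0.304).

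VIM, THBS1 and FBN1 were higher with hairpin B in PE and have 1 entry each in the promoter set used. Their windows of 250 upstream bases, in GRCh38.p14, overlap no annotated exon of the same gene, so these windows are shown. Overlap with exons of other genes was not checked. The FBN1 window ends at 48645220, inside the annotated gene, which runs to 48645709. The bases before that outermost FBN1 start were therefore not searched. CDH2, also higher there, has 2 starts, and its windows are not printed: 1 overlaps an exon, and the other held 1 AP-1 and 1 CCAAT match. The promoter set used held entries for 8 of the 10 genes and none for LUM and CDH11. Capitals mark GC boxes (GGGCGG, or CCGCCC on the other strand) and CCAAT boxes (ATTGG on the other strand), which adjoin in 1 run of THBS1. The windows are chr10:17227991-17228240 on the plus strand for VIM, chr15:39580829-39581078 on the plus strand for THBS1 and chr15:48644971-48645220 on the minus strand for FBN1.
VIM: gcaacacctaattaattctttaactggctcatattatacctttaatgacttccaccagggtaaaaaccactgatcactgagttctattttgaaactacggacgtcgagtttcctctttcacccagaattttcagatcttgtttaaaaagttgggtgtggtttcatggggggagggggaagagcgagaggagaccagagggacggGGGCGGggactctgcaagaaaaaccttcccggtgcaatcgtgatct
THBS1: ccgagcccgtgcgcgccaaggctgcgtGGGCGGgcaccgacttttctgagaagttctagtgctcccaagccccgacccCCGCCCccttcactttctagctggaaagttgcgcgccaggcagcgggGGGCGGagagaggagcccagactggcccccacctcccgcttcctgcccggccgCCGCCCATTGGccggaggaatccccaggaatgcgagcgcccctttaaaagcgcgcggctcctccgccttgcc
FBN1: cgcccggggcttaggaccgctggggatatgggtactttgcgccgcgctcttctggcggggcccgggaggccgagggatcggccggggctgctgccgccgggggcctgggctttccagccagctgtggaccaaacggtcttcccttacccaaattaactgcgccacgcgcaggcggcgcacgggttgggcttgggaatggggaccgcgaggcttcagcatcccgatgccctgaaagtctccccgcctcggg
VIM held 1 GC box and THBS1 held 4 with 1 CCAAT box, whereas FBN1 had no match to any of the 5 motifs searched on both strands. Among 35116 promoters of the same length, 42.6% held a GC box, 32.0% CCAAT, 6.57% the AP-1 motif TGANTCA, 6.34% the E-box CACGTG and 1.65% TGACGTCA. None of the 9 windows of the 8 genes held CACGTG, the core motif bound by MYC, and a match or its absence describes these letters only.

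TNC was lower with hairpin B in PE. In PE it had 33.1, 27.1, 29.3 and 28.2 CPM with hairpin B and 50.5, 45.1, 52.1 and 41.4 CPM with hairpin A, against 64.5, 56.9, 53.6 and 44.3 CPM with the GFP hairpin. The hairpin B libraries lay below all others of the line, and hairpin A overlapped the GFP hairpin. Its log2 change under hairpin B was -0.88 (SE 0.11, adjusted p = 1.63e-07), and that of -0.20 under hairpin A did not pass (SE 0.11, adjusted p = 0.239). All 12 PM libraries had between 8.09 and 11.6 CPM, and neither hairpin passed there.

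FN1 did not pass in any of the 4 comparisons in the fit without a replicate block. In edgeR with the replicate number as a block, FN1 passed under hairpin B in both lines. It was lower in PM (-0.50, adjusted p = 0.00419) and higher in PE (0.37, adjusted p = 0.0264). In PM it averaged 49.7 ± 7.48 CPM with hairpin B and 57.5 ± 11.4 CPM with hairpin A, against 73.0 ± 24.8 CPM with the GFP hairpin. In PE it had 525, 476, 648 and 889 CPM with hairpin B and 365, 346, 544 and 563 CPM with hairpin A, against 385, 383, 566 and 612 CPM with the GFP hairpin. Groups overlapped in both lines, and in PE replicates 3 and 4 exceeded replicates 1 and 2 under all 3 hairpins. The log2 change with hairpin B was -0.56 in PM (95% interval -1.09 to -0.02, adjusted p = 0.123) and 0.38 in PE (95% interval -0.15 to 0.91, adjusted p = 0.313).

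LUM in PM had 3.73, 2.41, 3.45 and 6.41 CPM with hairpin B and 1.21, 3.39, 1.25 and 1.95 CPM with hairpin A, against 5.84, 4.52, 5.65 and 10.1 CPM with the GFP hairpin. Only hairpin A lay wholly below the GFP hairpin, with a log2 change of -1.74 (SE 0.43, adjusted p = 0.00252). For hairpin B the change of -0.70 did not pass (SE 0.41, adjusted p = 0.234), except with limma-voom (adjusted p = 0.0321). In PE all 12 libraries were at 1.47 CPM or less, and neither hairpin passed. POSTN (chr13:37562585-37598768), periostin, which binds tenascin and collagen, was all but silent: 11 of 24 libraries held 106 counts between them. It had 0 counts in all 4 hairpin B libraries in PE, against 0, 6, 33 and 0 counts with the GFP hairpin. With a floor of 3 counts over the group, the pooled level was 19.6-fold lower with hairpin B, taking the GFP counts as fixed. The libraries of these groups overlapped (exact permutation test of log2(CPM + 1), p = 0.429). In edgeR the log2 change was -6.47 (95% interval -10.99 to -1.94, adjusted p = 0.0279). That call rests on few counts in 2 GFP libraries. It was lost without replicate 3 of the GFP hairpin (adjusted p = 0.0946), without any 1 of the hairpin B libraries (adjusted p between 0.0525 and 0.0791) and with limma-voom (adjusted p = 0.127).

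CDH2 and CDH11 moved in opposite directions with hairpin B in PE. CDH2 in PM had 51.6, 53.3, 47.4 and 55.3 CPM with hairpin B and 46.3, 45.7, 49.9 and 49.0 CPM with hairpin A, against 63.4, 58.5, 65.2 and 58.7 CPM with the GFP hairpin. Every CHD1 hairpin library was lower in PM. In PE it had 58.7, 60.8, 66.7 and 71.0 CPM with hairpin B and 50.4, 50.9, 48.9 and 51.0 CPM with hairpin A, against 47.2, 43.1, 49.6 and 49.7 CPM with the GFP hairpin. Hairpin B was higher than both other PE groups, and hairpin A overlapped the GFP hairpin. The log2 changes were -0.24 with hairpin B (SE 0.07, adjusted p = 0.00857) and -0.36 with hairpin A (SE 0.07, adjusted p = 0.000155) in PM, and 0.44 (SE 0.07, adjusted p = 1.59e-05) and 0.08 (SE 0.07, adjusted p = 0.507) in PE. Without replicate 3 of hairpin B in PM, the library with the most genes detected, the hairpin B change in PM was -0.20 and did not pass (adjusted p = 0.0511).

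CDH11 had 0.211, 0.458, 0.439 and 0.194 CPM with hairpin B in PE and 6.63, 5.22, 2.26 and 2.96 CPM with hairpin A, against 14.2, 12.3, 8.33 and 4.34 CPM with the GFP hairpin. The hairpin B libraries were far below all others of the line, while hairpin A overlapped the GFP hairpin. The log2 change of CDH11 under hairpin B was -4.91 (SE 0.51, adjusted p = 4.71e-09), with 67 counts over the hairpin B libraries and 1070 over the GFP libraries. The hairpin A change was -1.17 (SE 0.42, adjusted p = 0.0447). It was lost in a fit of these groups alone (adjusted p = 0.103), and without replicate 2, 3 or 4 of hairpin A in PE, replicate 1, 2 or 3 of the GFP hairpin in PE, or replicate 1 of hairpin A or of the GFP hairpin in PM (adjusted p between 0.0503 and 0.149). In PM the counts were 0, 1, 0 and 0 with hairpin B and 2, 0, 7 and 0 with hairpin A, against 2, 0, 5 and 4 with the GFP hairpin. The PM ratio for hairpin B was 0.0824 (95% interval 0.00191 to 0.565, counting error only), and the test did not pass (adjusted p = 0.0566); it passed with DESeq2 (adjusted p = 0.0256), without the filter on low counts (adjusted p = 0.0135), and without replicate 2 of hairpin B or of the GFP hairpin in PM or replicate 4 of the GFP hairpin in PE (adjusted p between 0.026 and 0.0402).

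**Figure D3:**
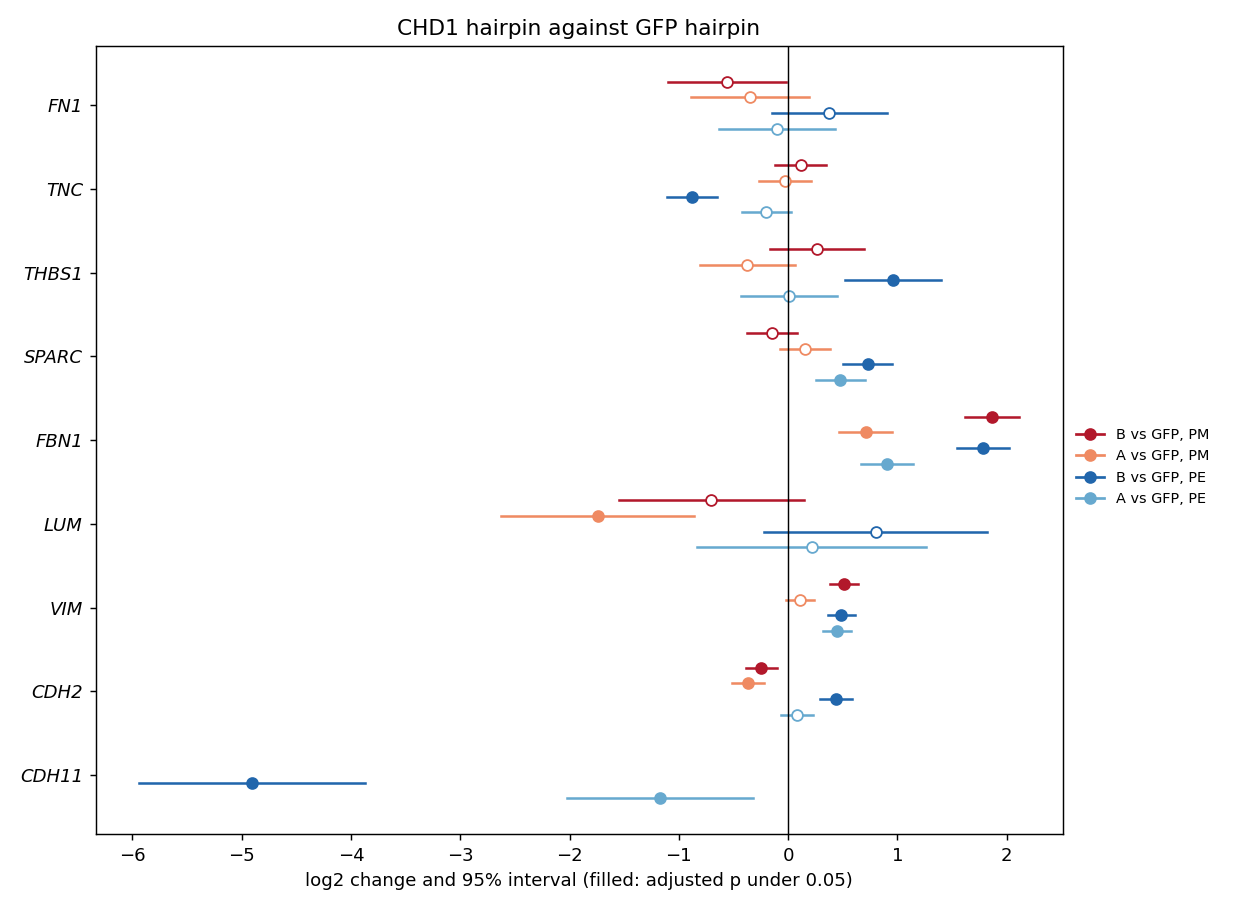
Log2 change of each gene with each CHD1 hairpin against the GFP hairpin of the same line, with 95% intervals from edgeR; filled points have an adjusted p under 0.05. FBN1 lies right of 0 in all 4 comparisons, CDH2 is left of 0 in PM and right of it with hairpin B in PE; CDH11 is drawn for PE only, and POSTN not at all, because of low counts.

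Whether a hairpin acted differently in the lines was tested as the change in PM minus the change in PE. For hairpin B, 3 of the 10 genes passed, 1 higher and 2 lower, where 2.45% of all genes tested did (1.47% higher, 0.98% lower). For hairpin A 2 passed, both lower, against 6.66% of all genes (2.76% higher, 3.9% lower). CDH2 passed for both, with -0.68 for hairpin B (SE 0.10, adjusted p = 4.08e-05) and -0.45 for hairpin A (SE 0.10, adjusted p = 0.00508). The hairpin B difference was -0.88 for SPARC (SE 0.16, adjusted p = 0.000944) and 1.00 for TNC (SE 0.16, adjusted p = 0.000129). VIM differed for hairpin A, by -0.34 (SE 0.09, adjusted p = 0.0131). FBN1 did not pass for either, with 0.08 for hairpin B (95% interval -0.25 to 0.42) and -0.19 for hairpin A (95% interval -0.53 to 0.15). LUM had -1.96 for hairpin A (95% interval -3.33 to -0.60, adjusted p = 0.0793), which passed with DESeq2 (adjusted p = 0.0242), without the filter on low counts (adjusted p = 0.00326) and without any 1 of 4 libraries (adjusted p between 0.0252 and 0.0462): replicate 2 of hairpin A in PM, and in PE replicate 1 of hairpin B, replicate 2 of hairpin A and replicate 3 of the GFP hairpin.

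**Figure D4:**
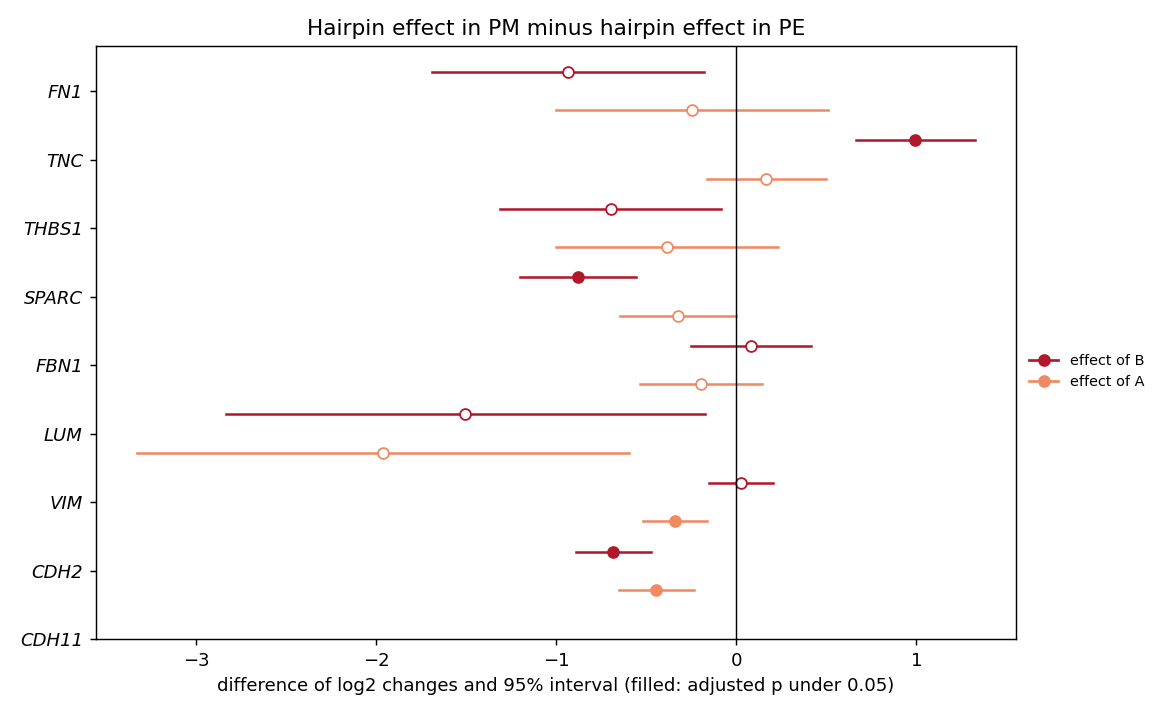
Change in PM minus change in PE for hairpins B and A, as a difference of log2 changes with 95% intervals from edgeR; filled points have an adjusted p under 0.05. CDH2 lies left of 0 for both hairpins and FBN1 lies near 0; POSTN and CDH11 are not drawn because of low counts.

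The CHD1 hairpins did not move these genes alike. Set directly against each other, hairpin B differed from hairpin A for 4 of the 10 genes in PM, 3 higher and 1 lower, where 26.3% of all genes tested passed (12.7% higher, 13.5% lower). Without replicate 3 of hairpin A in PM the PM count was 2. In PE hairpin B differed for 5, 3 higher and 2 lower, against 16.6% (7.48% higher, 9.09% lower). Libraries did not overlap for 3 members in PM and 5 in PE, against 26.2% and 20.6% of all genes. FBN1 was higher with hairpin B in both lines, by 1.16 in PM (SE 0.12, adjusted p = 2.34e-09) and 0.88 in PE (SE 0.11, adjusted p = 4.4e-07) on the log2 scale. THBS1 was higher with hairpin B by 0.64 in PM (SE 0.21, adjusted p = 0.0279) and 0.95 in PE (SE 0.21, adjusted p = 0.00284). The THBS1 call in PM was lost without replicate 3 or 4 of hairpin A, without replicate 2 of hairpin B (adjusted p between 0.0834 and 0.0892) and with no filter on low counts (adjusted p = 0.0513). VIM was higher with hairpin B in PM (0.41, SE 0.06, adjusted p = 4.86e-06), and in PE the difference of 0.04 did not pass (adjusted p = 0.755). In PE, CDH2 was higher (0.36, SE 0.07, adjusted p = 0.000423), and TNC (-0.68, SE 0.11, adjusted p = 2.2e-05) and CDH11 (-3.74, SE 0.49, adjusted p = 9.18e-07) were lower. SPARC was lower with hairpin B in PM (-0.30, SE 0.11, adjusted p = 0.0456), a call that was lost without any 1 of 10 libraries (adjusted p between 0.0505 and 0.159), among them replicate 3 of hairpin B in PM, with limma-voom (adjusted p = 0.126) and with library sizes alone (adjusted p = 0.0825). LUM in PM (1.04, SE 0.43, adjusted p = 0.0728) and SPARC in PE (0.25, SE 0.11, adjusted p = 0.117) did not pass, but did under 5 and 4 of the 8 alternative settings. For CHD1 itself the log2 difference was -0.08 in PM (95% interval -0.28 to 0.12) and -0.06 in PE (95% interval -0.26 to 0.14).

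CDH2 was set beside the other cadherins as a share of the summed CPM per kb of 23 cadherin genes. It made up 27 ± 3.11% with hairpin B and 27.4 ± 0.912% with hairpin A in PM, against 36.2 ± 1.53% with the GFP hairpin (SD, n = 4 each). In PE it made up 39.5 ± 3.53% with hairpin B and 37.5 ± 1.75% with hairpin A, against 33 ± 4.84% with the GFP hairpin. CDH2 held the largest mean share in 5 of the 6 groups, and in PM with hairpin A CDH24 held 30.2%. CDH1, E-cadherin of epithelia, held 11.1% with hairpin B and 8.41% with hairpin A in PM, against 12.3% with the GFP hairpin, and 0.151% with hairpin B and 1.25% with hairpin A in PE, against 4.97% with the GFP hairpin.

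**Figure D5:**
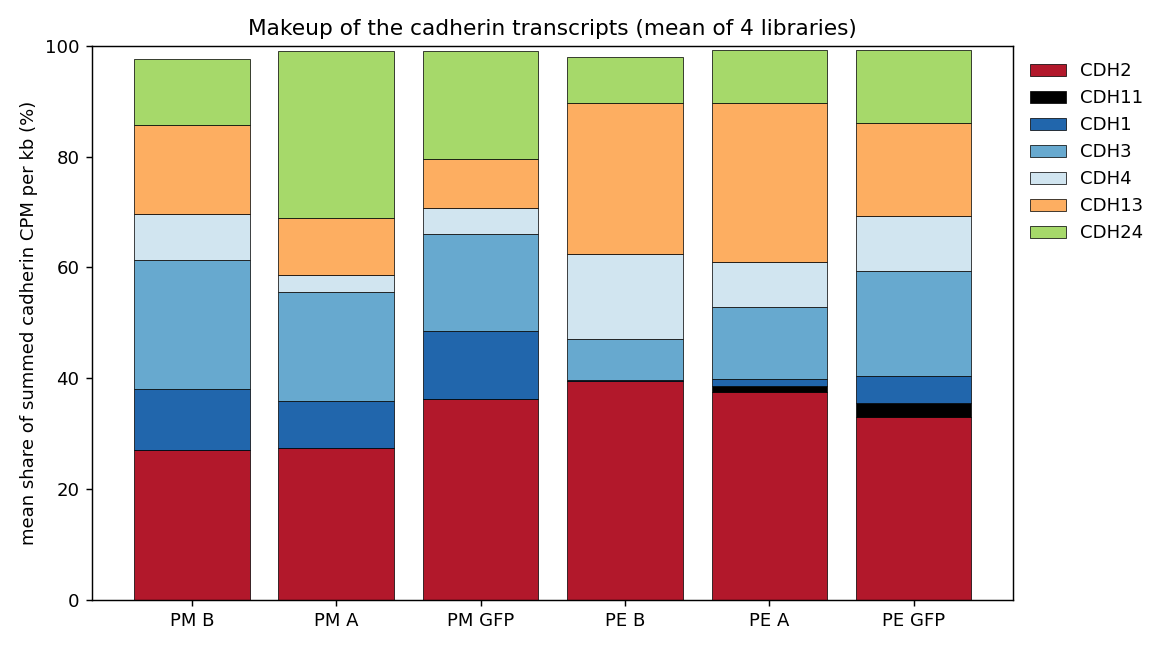
Mean share of each of 7 cadherins in the summed CPM per kb of 23 cadherin genes, in percent, for hairpin B, hairpin A and the GFP hairpin in PM and then in PE; 16 other cadherins make up the rest and are not drawn. CDH2 holds 27% to 39.5%, and CDH1 holds 0.151% with hairpin B in PE.

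Of 11 cadherins tested besides CDH2 and CDH11, 1 was higher and 2 were lower under both hairpins in PE (27.3%, against 12.3% of all genes), and 1 was higher in PM (9.09%, against 13.3%). The other 8 in PE did not pass under both. CDH1 averaged 0.309 CPM with hairpin B and 2.12 CPM with hairpin A in PE, against 9.22 CPM with the GFP hairpin, a mean log2 change of -3.51. CDH13, a cadherin with a lipid anchor, rose by 0.78 on the log2 scale in PE and 0.66 in PM, and CDH24 fell by 0.57 in PE. Of 4 catenins, which link cadherins to actin, JUP fell by 0.63 in PE, and in PM none passed under both hairpins, nor at an unadjusted p under 0.05.

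Among 27 other matrix glycoproteins tested, 3 passed under both hairpins in PE, all higher, and 3 were higher and 3 lower in PM. These are 11.1% in PE, near the 12.3% of all genes, and 22.2% in PM, where 13.3% of all genes did so. Taken singly, the hairpins differed. In PE, hairpin B had 11 higher and 2 lower (26.8% of all genes passed), and hairpin A 3 higher and 0 lower (20.2%). In PM, hairpin B had 12 higher and 3 lower (28.1% of all genes passed), and hairpin A 3 higher and 9 lower (27.8%). LTBP1, which binds latent TGF-beta to fibrillin microfibrils, rose in both lines, by a mean log2 change of 1.33 in PM and 0.93 in PE. FBLN1 (1.03) and EFEMP1 (0.61) rose in PE, and in PM MFAP4 (1.81) rose while CCN1 (-1.38) and FBN2 (-0.98), the fetal fibrillin, fell. Of 4 other leucine-rich proteoglycans, the family of LUM, none passed under both hairpins in edgeR in either line; at an unadjusted p under 0.05 it was 2 in PM, CHAD and OMD, and 1 in PE, DCN. Decorin, DCN, passed under hairpin A in PM (-2.33, adjusted p = 0.000604) and under hairpin B in PE (-1.35, adjusted p = 0.0179). With hairpin B in PM it went the other way, at 29.6 CPM against 15.7 CPM with the GFP hairpin, and did not pass. With hairpin A in PE it averaged 26.1 CPM, against 51.6 CPM with the GFP hairpin, and did not pass.

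Receptors of these proteins numbered 19 tested, with 3 higher and 3 lower under both hairpins in PE (31.6%, against 12.3% of all genes), and 2 lower in PM (10.5%, against 13.3%). LRP1, an endocytic receptor that takes up thrombospondin, rose by 1.12 in PE, while ITGB6 (-3.37), ITGB8 (-0.71) and the syndecan SDC1 (-0.64) fell. In PM, ITGB8 (-1.23) and EGFR (-0.46) fell. Of 21 TGF-beta pathway genes, 2 were higher and 2 lower in PE (19%, against 12.3% of all genes) and 2 higher and 3 lower in PM (23.8%, against 13.3%). The receptor TGFBR1 fell by 0.61 in PM and 0.69 in PE and the repressor SKIL by 0.77 in PM and 0.56 in PE. TGFB1 rose by 0.35 in PE and SKI fell by 0.47 in PM. Of 13 regulators of the epithelial to mesenchymal transition, 2 were higher and 3 lower under both hairpins in PE (38.5%, against 12.3% of all genes) and none passed in PM, where 1, TWIST2, had an unadjusted p under 0.05 for both. The epithelial splicing factors ESRP1 (-3.77) and ESRP2 (-0.66) fell in PE, and the repressors ZEB2 (0.53) and TWIST2 (0.44) rose. All of these are means of the log2 changes under both hairpins, each past the threshold in edgeR.

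Between the lines with the GFP hairpin, 25.5% of all genes tested passed, 14.1% higher and 11.4% lower in PM. Of the 19 receptors, 15 were lower in PM and 4 did not pass, with a median log2 difference of -0.87. LRP1 (-2.45) and ITGB8 (-1.39) were among the lower ones. Of the 27 other matrix glycoproteins, 10 were lower, LTBP1 (-2.66) and SMOC1 (-1.99) among them, and 4 higher, with a median log2 difference of -0.56 beside 0.02 over all genes. Likewise 10 of the 21 TGF-beta pathway genes were lower, with SMAD3 at -0.92 and TGFBR3 at -0.77. Of 13 transition regulators, 2 were higher, ESRP1 (1.37) and ESRP2 (0.91), and 3 lower, FOXC2 (-1.56) and ZEB1 (-0.93) among them. Of 11 cadherins, 3 were higher, CDH1 (1.63) and CDH24 (0.78) among them, and 2 lower, with CDH4 at -0.88, while 2 of 4 leucine-rich proteoglycans were lower, DCN at -1.71. No catenin of the 4 passed in edgeR, nor at an unadjusted p under 0.05.

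Markers of cell state moved beside these genes, and their part in the results was not tested. The 10 basal epithelial markers summed to 2540 to 3030 CPM with hairpin B and 1860 to 2040 CPM with hairpin A in PM, against 3870 to 4600 CPM with the GFP hairpin. In PE they summed to 2130 to 2690 CPM with hairpin B and 3030 to 4340 CPM with hairpin A, against 4920 to 7050 CPM with the GFP hairpin. The 9 fibroblast markers summed to 39.2 to 65 CPM with hairpin B and 17.7 to 19.8 CPM with hairpin A in PM, against 18.5 to 35.7 CPM with the GFP hairpin. In PE those sums were 32.1 to 52.6 CPM with hairpin B and 40.4 to 57.2 CPM with hairpin A, against 54.4 to 71.2 CPM with the GFP hairpin. DCN was the largest part of these sums except with hairpin A in PM, where COL1A1 was, and single markers differed in direction. Of 7 fibroblast markers tested, 1 was higher with hairpin B in PM and 1 higher and 1 lower with hairpin A. In PE 3 were higher and 1 lower with hairpin B and 1 higher with hairpin A. The shares over all genes tested were 28.1% with hairpin B and 27.8% with hairpin A in PM, and 26.8% and 20.2% in PE. FAP in PE (1.10) and COL1A1 in PM (1.03) were higher under both hairpins, as means of the log2 changes. The 6 simple epithelial markers summed in PM to 649 to 773 CPM with hairpin B and 735 to 839 CPM with hairpin A. With the GFP hairpin they summed to 613 to 747 CPM there. In PE their sums were 571 to 604 CPM with hairpin B and 610 to 697 CPM with hairpin A. With the GFP hairpin the PE sums were lower, at 443 to 514 CPM. Under both hairpins in PE, KRT8 was higher (0.67), and CDH1 (-3.51) and EPCAM (-1.25) were lower, as means of the log2 changes. The 5 endothelial markers summed to at most 15.2 CPM and the 5 of smooth muscle to at most 9.2 CPM. The 5 immune ones summed to at most 65.5 CPM. In each of the last 2 lists 4 of the 5 genes averaged under 1 CPM in every group. At 0 in some groups were, among fibroblast markers, COL1A2, COL3A1 and TCF21.

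Likeness in pattern was described by Pearson's r of log2(CPM + 1) over the 24 libraries, among 10749 protein-coding genes, for the 9 genes with at least 5 CPM in a group. Because the libraries fall into the lines, r over all is largely a difference between PM and PE, and r within PM and within PE (12 libraries each) is given beside it. Means of the hairpin groups were not removed, so r within a line also carries the differences between hairpins given above. FBN1 was most like MMP19, a matrix metalloproteinase, at r = 0.973 (0.939 in PM, 0.947 in PE), and FAM167A at r = 0.971 (0.932 in PM, 0.974 in PE). VIM was most like UBE2L6 at r = 0.971 (0.927 in PM, 0.896 in PE), SPARC like MAP1B at r = 0.993 (0.713 in PM, 0.878 in PE), and FN1 like SPTAN1 at r = 0.982 (0.731 in PM, 0.674 in PE). CDH11 was most like the transcription factor NFIB at r = 0.97 (0.663 in PM, 0.96 in PE), and THBS1 like SNAP25 at r = 0.917 (0.782 in PM, 0.902 in PE). No PM library held more than 7 counts of CDH11, so its r in PM rests on few counts. TNC was most like ACKR1 at r = 0.98, but that likeness was 0.289 within PM and 0.904 within PE. LUM and CDH2 had weaker partners, PLEKHA7 at r = 0.911 (0.849 in PM, 0.0415 in PE) and RNGTT at r = 0.806 (0.744 in PM, 0.957 in PE). Among the members, VIM and FBN1 had r = 0.949 in PM and 0.875 in PE, whereas SPARC and FBN1 had r = -0.435 in PM and 0.931 in PE.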

How the data were processed

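RNA was measured in 24 libraries, 4 in each of 6 groups of line and hairpin taken from the labels. Per the submitters' processing notes, the authors used FastQC, Trim Galore 0.4.0, HISAT2 2.2.1 and featureCounts on GRCh38 to make the deposited counts per gene, which are whole and unscaled. The annotation release, strand setting and treatment of reads with several matches were not given in the sources used here. VIM, THBS1, SPARC, TNC, CDH2 and CDH11 share exon bases with another annotated gene, so their reads could be split; partners in the table held at most 0.783% of the member's counts.

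edgeR fitted the 20820 genes that passed filterByExpr with a separate mean for every group (edgeR 4.0.16 in R 4.3.3, TMM, robust quasi-likelihood test). Each of 9 contrasts had two-sided p-values with Benjamini-Hochberg adjustment over all genes tested, with a threshold of 0.05. SEs are the log2 change over the square root of F and approximate; ± values are SDs. In simulated data for hairpin A against GFP in PE, 84 of 100 2-fold and 16 of 100 1.5-fold changes were recovered with 9 false calls among 20820 genes. The simulation changed only these genes and gave all genes the same spread, whereas 20.2% of all genes passed this contrast in the data. Its rates of recovery therefore need not hold for these data. Alternatives were other scalings, DESeq2 1.42.0, limma-voom (limma 3.58.1), other filters, the compared groups alone, the replicate number as a block, and leaving out each library. Lengths for CPM per kb are exon unions of GENCODE v29.

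The 10 members and the gene lists were chosen with earlier results of these data known. Named besides the members were CHD1, MYC, up to 4 genes per list with the largest changes under both hairpins or between the lines, and the 2 genes most like each member with at least 5 CPM; of these, 1 is printed for most members. CDH1 and DCN are also shown for single hairpins. One gene that the rule names is not reported here.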

Additional observations from a re-analysis of the deposited data

Results flagged for a closer look

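CDH2 changed differently in the lines under both CHD1 hairpins, with a PM minus PE difference of -0.68 on the log2 scale for hairpin B and -0.45 for hairpin A. For hairpin B the difference was -0.88 for SPARC and 1.0 for TNC, and for hairpin A it was -0.34 for VIM. Each difference passed a test of the difference itself in edgeR.

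In 2 of 59 groups examined, 1 library was flagged as apart from the other 3, where chance gives about 1 in 20 for continuous values. In both groups the other 3 had 0 counts, so any count would be flagged and that rate does not apply. With hairpin B in PM, replicate 3 had 0.135 CPM of POSTN, in 10 counts, while the other 3 libraries had 0 counts. In the same group replicate 2 had 0.0317 CPM of CDH11, in 1 count, while the other 3 had 0 counts.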

How the results depend on the processing

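Of 694 values under 8 alternative settings, 665 kept their direction and side of the threshold, 5 fell short of it, 24 newly passed it and none reversed. Of 2160 values with 1 library left out, 2122 stayed, 27 fell short, 11 newly passed and none reversed. The count for hairpin B against GFP in PM was 5 with the replicate number as a block, against 3 without, FN1 (-0.50, adjusted p = 0.00419) and CDH11 (adjusted p = 0.0273) being added; the cause was not tested. The block also brought past the threshold FN1 for hairpin B in PE (0.37, adjusted p = 0.0264), for B against A in PE (0.47, adjusted p = 0.00835) and for PM minus PE with hairpin B (-0.87, adjusted p = 0.00477), and LUM for PM minus PE with hairpin A (adjusted p = 0.0487). Under the other settings all counts stayed within 1.5 times; with 1 library left out, B against A in PM was 2 without replicate 3 of hairpin A, against 4.

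With 1 library left out, the counts ran from 3 to 4 for hairpin A and 7 to 8 for hairpin B in PE, stayed at 3 for hairpin A and ran from 2 to 4 for hairpin B in PM, and stayed at 8 between the lines. For hairpin B against A they ran from 5 to 6 in PE and 2 to 4 in PM, and for PM minus PE from 2 to 3 with hairpin A and stayed at 3 with hairpin B.

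Libraries with the same number correlated in their deviations at r between 0.00258 and 0.319, over 0.1 in 41 of 60 pairs. The median r was 0.133 for the same number, against -0.0506 for different numbers. Of 24 libraries, 22 correlated best with their own number, and the index numbers in the column names run by replicate set. No label says that a number marks a batch or a pair, so the main fit has no block, and values with the block are given above. Between libraries of the same number, FN1 was lower with hairpin B than GFP in 4 of 4 in PM and higher in 4 of 4 in PE. With library sizes alone the share of calls that were higher became 39.2% against 53.8% for hairpin A in PE, 58.6% against 48.5% for B against A in PM, 56.4% against 45.1% for B against A in PE, and 71.5% against 60% and 56.5% against 41.5% for the line differences with hairpins B and A; with the block it was 48% against 60% for hairpin B. POSTN, CDH11 in PM and LUM in PE rest on few counts, which limits what can be seen of them.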
